A study of Homo sapiens with 8 samples.

Results

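The 9 genes described here belong to MHC class I and antigen processing and were measured across the 4 genotypes of a U2OS RNA-seq series: the heavy chain genes HLA-B, HLA-C and HLA-E, the light chain gene B2M, the peptide transporter genes TAP1 and TAP2, the loading factor gene TAPBP (tapasin) and the immunoproteasome subunit genes PSMB8 and PSMB9. They were taken by symbol from the deposited gene tables, which list 19414 genes, and all 9 members were found in each of the 8 tables. U2OS is an established osteosarcoma cell line. The genotypes, with 2 libraries each, were unmodified cells (WT), cells with MYC overexpression (labelled MYC O/E and written MYC below), cells labelled Zab, and cells with both changes (labelled Zab + MYC O/E, written Zab+MYC). The design text writes Zab as Zαβ, which is the usual name of the Z-DNA-binding segment of the RNA editing enzyme ADAR1; the labels give neither the construct, nor its promoter, nor whether each line is a clone. The series title places the experiment in work on Z-DNA, MYC and the histone chaperone FACT. Total RNA was sequenced.

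MHC class I molecules show peptides from inside the cell to cytotoxic T cells and natural killer cells. Proteasomes cut cytosolic proteins into peptides, and interferon-induced subunits can replace the constitutive catalytic ones to form the immunoproteasome. The heterodimer of TAP1 and TAP2 carries the peptides into the endoplasmic reticulum, where tapasin and chaperones help to load them onto a heavy chain bound to beta-2-microglobulin. Many of these genes respond to interferons through IRF and STAT factors, to NF-kB, and to NLRC5 with the RFX complex, and MYC is known to influence class I expression in several tumour types.

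Of these genes 8 lie on chromosome 6 and B2M lies on chromosome 15. In the hg19 coordinates of the files, HLA-E spans chr6:30457286-30461971 on the plus strand, HLA-C chr6:31236526-31239913 on the minus strand and HLA-B chr6:31321652-31324956 on the minus strand. TAP2 (chr6:32793187-32806600, minus), PSMB8 (chr6:32808494-32812456, minus), TAP1 (chr6:32812986-32821748, minus) and PSMB9 (chr6:32821969-32827628, plus) are adjacent, and no other gene of the tables falls within these 34442 bases. TAPBP spans chr6:33267471-33281855 on the minus strand, and B2M spans chr15:45003715-45011075 on the plus strand. Values refer to summed exons of 1 transcript per gene.

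Promoter sequences show which regulatory letters the genes share and which they do not. RefSeq promoters on GRCh38.p14, each reaching from 250 bases before to 50 bases after a start site, were found for 8 of the 9 genes; HLA-E was not among them. The windows below are 100 bases long and read 5′ to 3′ on the gene's strand. Capitals mark the letters GAAANNGAAA (an interferon response element, bound by IRF factors), GGGNNTTNCC (an NF-kB-type site) and TGACGC (core of the X2 box of class I promoters), on either strand. The sequences are the reference's and not those of the alleles of U2OS.
TAP1: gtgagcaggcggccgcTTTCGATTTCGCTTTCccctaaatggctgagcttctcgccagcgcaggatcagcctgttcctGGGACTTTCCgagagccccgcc
TAP2: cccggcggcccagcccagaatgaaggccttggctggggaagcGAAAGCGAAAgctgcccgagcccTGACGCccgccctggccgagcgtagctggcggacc
TAPBP: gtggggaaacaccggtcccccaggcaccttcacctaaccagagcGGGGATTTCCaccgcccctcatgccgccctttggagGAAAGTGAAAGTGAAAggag
PSMB8: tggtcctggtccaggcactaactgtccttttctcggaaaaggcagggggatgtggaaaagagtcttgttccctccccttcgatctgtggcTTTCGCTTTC
B2M: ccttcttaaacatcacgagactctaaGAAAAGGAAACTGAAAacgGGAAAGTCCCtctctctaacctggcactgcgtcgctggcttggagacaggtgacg
HLA-B: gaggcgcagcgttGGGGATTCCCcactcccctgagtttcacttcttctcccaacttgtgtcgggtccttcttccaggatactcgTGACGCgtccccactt
HLA-C: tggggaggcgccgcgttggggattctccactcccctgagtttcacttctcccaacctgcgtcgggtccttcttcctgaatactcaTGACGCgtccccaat

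These windows stand at chr6:32853755-32853854 (TAP1), chr6:32838740-32838839 (TAP2), chr6:33314079-33314178 (TAPBP), chr6:32844042-32844141 (PSMB8, the second of its listed start sites), chr15:44711347-44711446 (B2M), chr6:31357270-31357369 (HLA-B) and chr6:31272183-31272282 (HLA-C), all on GRCh38.p14, with B2M on the plus and the others on the minus strand. GAAANNGAAA was found in 5 of the 8 genes, namely B2M, TAP1, TAP2, TAPBP and PSMB8, against 3.57% of the 35116 promoters of the table. In B2M, TAP1 and TAPBP a pair of such matches overlaps. GGGNNTTNCC was found in HLA-B, B2M, TAP1 and TAPBP, 4 of 8, against 5.68% of promoters. TGACGC was found in HLA-B, HLA-C and TAP2, 3 of 8, against 9.14%. CCAAT, searched on both strands, was found in 5 of 8, against 34.6%. TTCNNNGAA (a STAT-type site) was found in TAP1 and PSMB8, each at the second listed start, against 7.66%, and the E-box CACGTG, the site of MYC and MAX, in 0 of 8, against 7.26%. TAP1 and PSMB9 are read away from each other. The first listed start of TAP1 lies 488 bases from that of PSMB9, while the hg19 coordinates above place these genes closer together. PSMB9's own window held neither GAAANNGAAA nor GGGNNTTNCC. The TAP1 matches to these letters lie between both starts but outside the PSMB9 window. These matches describe exact letters in 300-base windows only. A site that departs from the letters was not counted. A gene without a match, such as HLA-B or HLA-C for GAAANNGAAA, may therefore still hold such a site.

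Values were given as CPM, that is counts of exon tags relative to the library's sum, after scaling by TMM, which sets the bulk of genes equal between libraries. The depth was low, between 686992 and 1326166 exon tags per library, and the share of all tags that fell in exons ran from 60.6% to 76.1%, lowest in Zab; the part of that share in the results was not tested. Genes were tested with limma on log2(CPM + 2), a scale that understates the change of low genes; a gene was called at a Benjamini-Hochberg adjusted p under 0.05 over 9673 genes. Of the 9 members, 8 passed the filter on low counts, and PSMB9, with 1 to 9 tags per library, did not. With 2 libraries against 2, an exact permutation test of a single value cannot go below p = 0.333, so the calls rest on the spread shared over all genes. The labels do not tell whether a group's 2 libraries were grown apart, so the p-values measure the spread between these libraries. As a check of the labels, MYC itself measured 83.7 ± 15.8 CPM (WT), 1263.4 ± 37.1 (MYC), 212 ± 25.1 (Zab) and 706 ± 1.27 (Zab+MYC), that is 14.9-fold more in MYC relative to WT and 3.32-fold more in Zab+MYC relative to Zab. ADAR was 22.7-fold up in Zab relative to WT but 4.34-fold up in Zab+MYC relative to MYC, so the ADAR level of Zab+MYC was 5.84-fold below that of Zab. MYC was also 2.51-fold higher in Zab than in WT. Of the osteoblast lineage markers, COL1A1 and SPARC carried nearly all of the level, summing with the other 5 to 2966 to 3058 CPM (WT), 502.5 to 521.9 (MYC), 2077 to 2133 (Zab) and 875.3 to 905.1 (Zab+MYC), while SP7 had 2 tags and COL1A2 1 tag over all libraries. The 10 haematopoietic markers summed to 7.57 to 17.2 CPM in every library, with CD3E and NKG7 at 0, and 3 endothelial markers to 0.793 to 5.02 CPM. Of the 3 osteoblast markers tested, 2 fell in MYC against WT (COL1A1 and SPARC), and all 3 fell in Zab against WT (COL1A1 1.42-fold, SPARC 1.43-fold and RUNX2 2.28-fold), where 0 members fell; their part in the members' results was not tested. In bulk libraries, fewer cells with a transcript and less of it per cell cannot be told apart.

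HLA-B and HLA-C, the genes of classical heavy chains that present peptides to T cells, went in opposite directions in MYC against WT. HLA-B measured 343.83 and 343.81 CPM (WT), 492.71 and 475.46 (MYC), 410.28 and 427.16 (Zab) and 415.56 and 382.03 (Zab+MYC). Both WT libraries were the lowest and both MYC libraries the highest. HLA-B rose 1.41-fold in MYC against WT (log2 0.49 ± 0.0786 SE, adjusted p = 1.45e-07) and 1.22-fold in Zab against WT (log2 0.28, adjusted p = 0.00438). The call in Zab against WT ended with DESeq2, and its direction turned on the deposited scale. In cells with MYC, adding Zab went with a fall: HLA-B in Zab+MYC was 1.21-fold under its MYC level (log2 -0.28, adjusted p = 0.00662), a call that ended without the second Zab+MYC library. The order of the means was MYC, Zab, Zab+MYC and WT, and among neighbours in it Zab and Zab+MYC did not differ beyond their spread (adjusted p = 0.545). The other neighbouring steps were borderline: Zab+MYC over WT (1.16-fold, adjusted p = 0.0238) was not called or turned in 6 of 20 alternatives, among them leaving out either WT or the first Zab+MYC library, and Zab under MYC (1.155-fold, adjusted p = 0.022) was not called in 3, among them leaving out the first MYC library.

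HLA-C measured 440.99 and 454.00 CPM (WT), 272.74 and 268.86 (MYC), 474.12 and 529.36 (Zab) and 304.13 and 331.00 (Zab+MYC). All 4 libraries with MYC overexpression lay below all 4 without it. HLA-C fell 1.65-fold in MYC against WT (log2 -0.72 ± 0.0827, adjusted p = 8.39e-12) and 1.58-fold in Zab+MYC against Zab (log2 -0.66, adjusted p = 1.15e-09). The difference of Zab from WT was not called (log2 0.16, adjusted p = 0.151). Zab+MYC stood 1.17-fold above MYC (adjusted p = 0.0405), and that call ended in 10 of 20 alternatives.

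HLA-B took the larger share of the summed tags of HLA-B and HLA-C where MYC was overexpressed. The mean ± SD (n = 2) of this share was 43.5% ± 0.506 (WT), 64.1% ± 0.347 (MYC), 45.5% ± 1.23 (Zab) and 55.7% ± 2.94 (Zab+MYC). The sum of both genes moved less in MYC against WT than its parts, at 791 ± 9.18 CPM (WT), 755 ± 14.9 (MYC), 920.5 ± 50.99 (Zab) and 716 ± 4.71 (Zab+MYC). These shares do not depend on the scaling between libraries. The HLA genes are close copies of each other and vary between people, so reads can be split or lost between them when the cells' alleles differ from the reference, and their counts are uncertain in absolute terms.

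**Figure D1:**
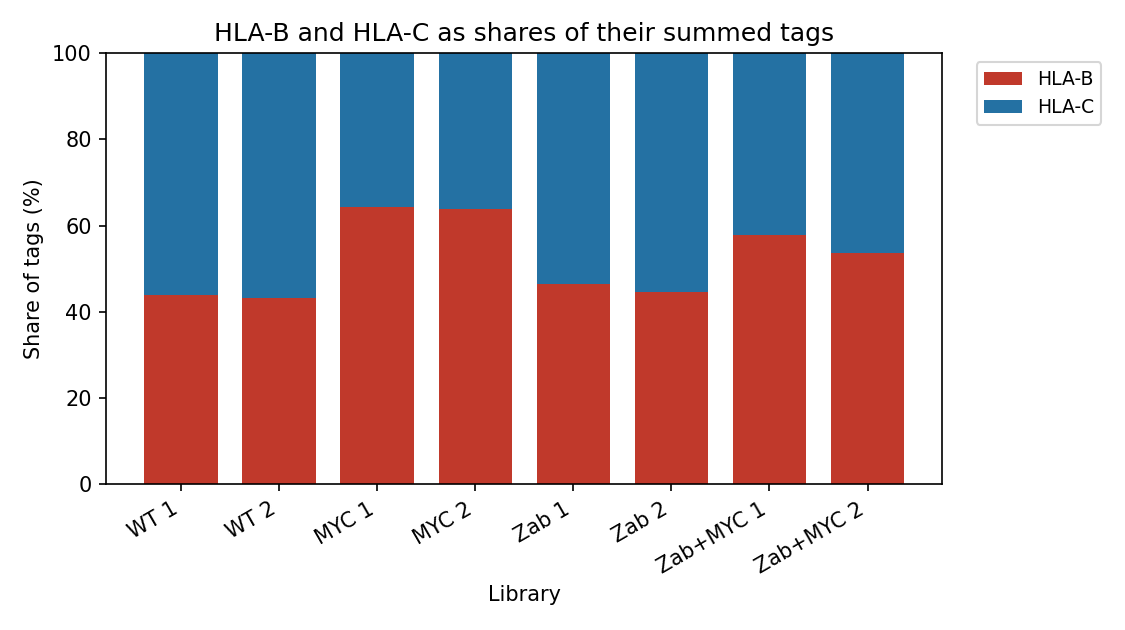
Stacked bars show HLA-B and HLA-C as percentages of their summed tags in each of the 8 libraries. HLA-B lies at 43.1% to 46.4% in the libraries without MYC overexpression and at 53.6% to 64.4% in those with it.

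HLA-E, which presents signal peptides of other class I chains to natural killer receptors, measured 129.33 and 123.43 CPM (WT), 82.197 and 104.69 (MYC), 140.59 and 168.29 (Zab) and 127.00 and 104.90 (Zab+MYC). The Zab libraries were the highest and the MYC libraries the lowest, and the Zab+MYC libraries overlapped those of WT. HLA-E fell 1.35-fold in MYC against WT (log2 -0.44 ± 0.142, adjusted p = 0.00646) and 1.33-fold in Zab+MYC against Zab (log2 -0.41, adjusted p = 0.0244). The first call ended without the first WT or the first MYC library, and the second without the second library of Zab or of Zab+MYC. Both calls also ended with DESeq2 and with no low-count filter, and the second on the deposited scale. Ranked by mean, Zab, WT, Zab+MYC and MYC followed each other with no neighbouring pair called.

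B2M, the light chain shared by every class I molecule, was lowest in the cells with both changes. It measured 259.29 and 309.91 CPM (WT), 175.60 and 187.96 (MYC), 248.18 and 264.98 (Zab) and 153.77 and 111.99 (Zab+MYC). The Zab libraries overlapped WT, and the 4 libraries with MYC overexpression lay below both. B2M fell 1.55-fold in MYC against WT (log2 -0.64 ± 0.115, adjusted p = 2.23e-06), 1.94-fold in Zab+MYC against Zab (adjusted p = 2.81e-10) and 2.14-fold in Zab+MYC against WT (adjusted p = 6.46e-13). Between Zab+MYC and MYC it was 1.38-fold lower (adjusted p = 0.00187), and this last call ended with DESeq2 and without the second Zab+MYC library. Per kilobase of transcript, B2M stood at 0.334 ± 0.0382 of the sum of HLA-B and HLA-C (WT), 0.222 ± 0.0151 (MYC), 0.259 ± 0.00225 (Zab) and 0.171 ± 0.0382 (Zab+MYC).

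TAP1 and TAP2, the subunits of the peptide transporter, both rose in Zab against WT. In MYC against WT they moved apart, though the fall of TAP1 was borderline. TAP1 measured 48.578 and 42.910 CPM (WT), 33.626 and 31.327 (MYC), 85.356 and 104.04 (Zab) and 54.500 and 51.032 (Zab+MYC). Its 2 Zab libraries were far above the other 6. TAP1 rose 2.02-fold in Zab against WT (log2 1.014 ± 0.203, adjusted p = 6.15e-05) and 1.59-fold in Zab+MYC against MYC (log2 0.67, adjusted p = 0.0121), and it fell 1.76-fold in Zab+MYC against Zab (adjusted p = 0.00133). The rise over MYC was not called when either MYC or either Zab+MYC library was left out, with DESeq2 or on the deposited scale. MYC stood 1.38-fold below WT (adjusted p = 0.0422), a borderline call that ended in 14 of 20 alternatives. The table kept a 2165-base transcript of TAP1 in 3 libraries and one of 2931 bases in 5, one of each in WT, Zab and Zab+MYC; rescaling each library by its transcript's length ended none of these calls.

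TAP2 measured 19.557 and 28.077 CPM (WT), 70.988 and 65.430 (MYC), 38.733 and 41.614 (Zab) and 69.098 and 53.867 (Zab+MYC). The 4 groups did not overlap except for MYC with Zab+MYC. TAP2 rose 2.76-fold in MYC against WT (log2 1.46 ± 0.222, adjusted p = 4e-08) and 2.48-fold in Zab+MYC against WT (adjusted p = 1.14e-06). The rise in Zab against WT was smaller, at 1.66-fold (log2 0.73, adjusted p = 0.0101). It was not called without the first WT or the second Zab library, with DESeq2 or on the deposited scale. The difference of Zab+MYC from MYC was not called (log2 -0.15, adjusted p = 0.686). Zab+MYC stood 1.495-fold above Zab (log2 0.58, adjusted p = 0.0429), a borderline call that ended in 9 of 20 alternatives, among them library totals, transcript length, and leaving out either MYC, either Zab or the first Zab+MYC library. Per kilobase, TAP1 was well above TAP2 in WT, at 18.5 ± 5.51 against 4.19 ± 1.09 CPM per kb, and in Zab, at 37.5 ± 2.78 against 7.10 ± 0.360. In MYC the pair stood close together, at 11.1 ± 0.555 and 11.9 ± 0.688 CPM per kb, and in Zab+MYC at 21.3 ± 5.49 and 10.9 ± 1.90.

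TAPBP, whose product tapasin bridges the transporter and the empty heavy chain, had the largest fall of the 8 tested genes in MYC against WT. It measured 249.20 and 235.74 CPM (WT), 77.526 and 57.896 (MYC), 223.07 and 200.11 (Zab) and 129.92 and 127.58 (Zab+MYC). The 4 groups did not overlap. TAPBP fell 3.54-fold in MYC against WT (log2 -1.82 ± 0.130, adjusted p = 9.78e-21) and 1.63-fold in Zab+MYC against Zab (log2 -0.71, adjusted p = 1.31e-05). Its Zab+MYC level was 1.89-fold above its MYC level (log2 0.92, adjusted p = 4.84e-08), while Zab did not pass the test against WT (log2 -0.20, adjusted p = 0.29).

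PSMB8, the immunoproteasome subunit with chymotrypsin-like activity that takes the place of PSMB5, was high in Zab alone. It measured 35.961 and 34.964 CPM (WT), 40.164 and 25.776 (MYC), 88.225 and 81.392 (Zab) and 31.629 and 30.477 (Zab+MYC). The Zab libraries were above the other 6; the MYC libraries spanned those of WT and Zab+MYC, and WT lay above Zab+MYC. PSMB8 rose 2.32-fold in Zab against WT (log2 1.21 ± 0.229, adjusted p = 2.25e-05) and stood 2.63-fold under that level in Zab+MYC (log2 -1.39, adjusted p = 1.37e-06). Neither MYC against WT (adjusted p = 0.647) nor Zab+MYC against MYC (adjusted p = 0.911) was called. Per kilobase, PSMB8 stood at 0.219 ± 0.0449 of PSMB5 (WT), 0.133 ± 0.0362 (MYC), 0.488 ± 0.136 (Zab) and 0.121 ± 0.00336 (Zab+MYC).

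PSMB9, the immunoproteasome subunit that takes the place of PSMB6, was near the limit of detection. Its tags were 9 and 8.5 (WT), 1 and 3 (MYC), 4.5 and 7 (Zab) and 2 and 2.5 (Zab+MYC). In CPM these are 10.2 ± 1.66 (WT), 1.66 ± 1.02 (MYC), 7.51 ± 1.49 (Zab) and 2.75 ± 1.13 (Zab+MYC). The libraries with MYC overexpression all lay below those without it. Summed over each group's libraries, the ratio of MYC to WT per exon tag was 0.156, with a 95% counting interval from 0.0382 to 0.475, and that of Zab+MYC to Zab was 0.334, with an interval from 0.0853 to 1.07; these intervals cover counting error only. Without the filter, limma put PSMB9 1.72 log2 units lower, at -1.72 ± 0.451, in MYC against WT (adjusted p = 0.00656) and found no difference past the threshold in Zab against WT (log2 -0.35, adjusted p = 0.724) or in Zab+MYC against Zab (log2 -1.005, adjusted p = 0.171). The summed ratio of Zab to WT was 0.734, with an interval from 0.317 to 1.63, which does not reach the 2.32-fold rise of PSMB8; the difference between the genes was not tested.

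**Figure D2:**
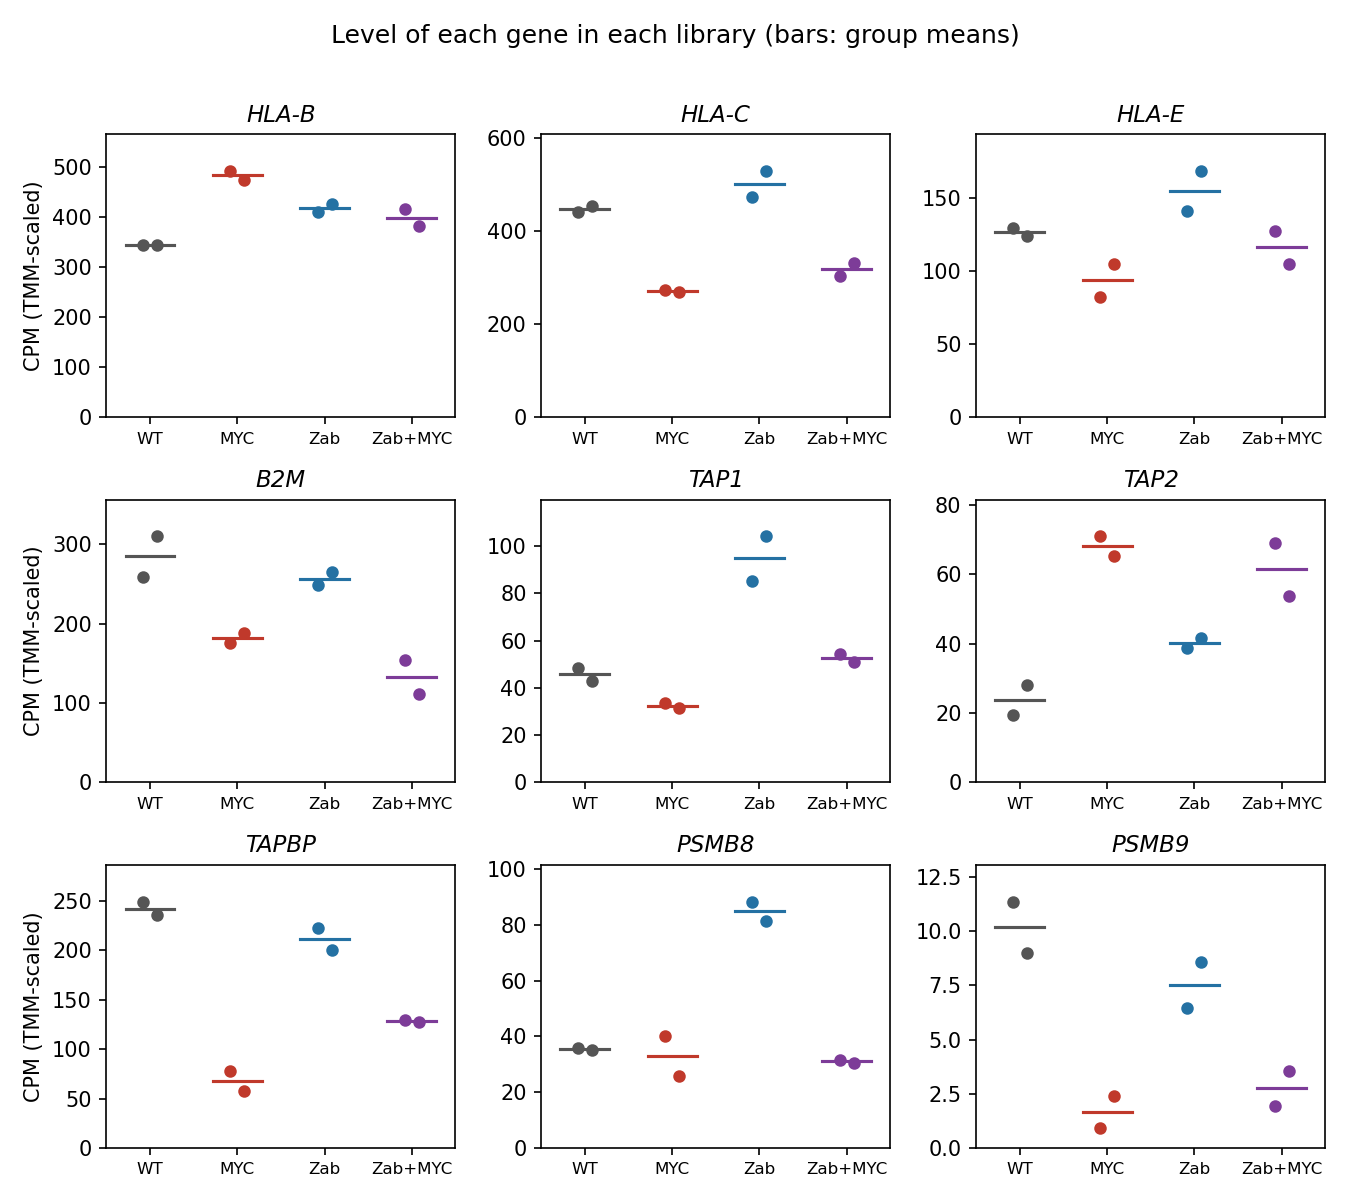
Each panel plots 1 gene in CPM on a linear axis from 0, with a point per library and a bar at each group mean (n = 2). The Zab libraries stand highest for TAP1 and PSMB8, the MYC libraries lowest for HLA-C and TAPBP and highest for HLA-B, and TAP2 is high in both groups with MYC overexpression.

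Against these single-gene results, the counts over the 8 tested members were as follows. In MYC against WT, 2 members rose (HLA-B and TAP2) and 5 fell, with a median log2 of -0.45; 27.8% of all tested genes rose and 30.4% fell, with a median of -0.04. In Zab against WT, 4 members rose (HLA-B, TAP1, TAP2 and PSMB8) and 0 fell, with a median of 0.28, where 13.1% of all genes rose and 11.3% fell (no member was lower by limma at an unadjusted p under 0.05, by edgeR or by DESeq2, and DESeq2 called 2 members in all). On the scale of the deposited values, described below, 2 members rose and 4 fell in Zab against WT, with a median of -0.26. In Zab+MYC against WT, 2 rose and 3 fell, beside 21.6% and 20.6% of all genes. In Zab+MYC against MYC, 3 rose (HLA-C, TAP1 and TAPBP) and 2 fell (HLA-B and B2M), beside 11.8% and 8.14%. In Zab+MYC against Zab, 1 rose (TAP2, the borderline call above) and 6 fell, with a median of -0.68, beside 14.3% and 12.5%. In Zab against MYC all 8 were called, 6 higher and 2 lower, beside 26.8% and 24.1%; the largest were TAPBP at 3.09-fold and TAP1 at 2.79-fold higher. These comparisons share libraries with each other, so their counts are not independent.

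The effect of Zab depended on MYC for 4 of the 8 genes. The interaction, the Zab effect with MYC overexpression minus the Zab effect without it, was negative for HLA-B (log2 -0.56 ± 0.111, adjusted p = 4.79e-05), TAP2 (-0.88 ± 0.314, adjusted p = 0.0271) and PSMB8 (-1.26 ± 0.324, adjusted p = 0.0017) and positive for TAPBP (1.12 ± 0.183, adjusted p = 1.12e-06). That makes 1 higher and 3 lower, beside 14.6% and 13.3% of all genes. For HLA-C (0.06), HLA-E (0.03), B2M (-0.32, adjusted p = 0.141) and TAP1 (-0.35, adjusted p = 0.404) the interaction was not called, and a difference between the 2 Zab effects was not shown. The TAP2 call ended in 7 alternatives, among them DESeq2 and each of leaving out the first WT, first MYC, second Zab and second Zab+MYC library. The PSMB8 call ended with DESeq2. The ADAR and MYC levels themselves differed between the groups with and without the second change, as given above, and the part of those doses in the interaction was not tested.

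**Figure D3:**
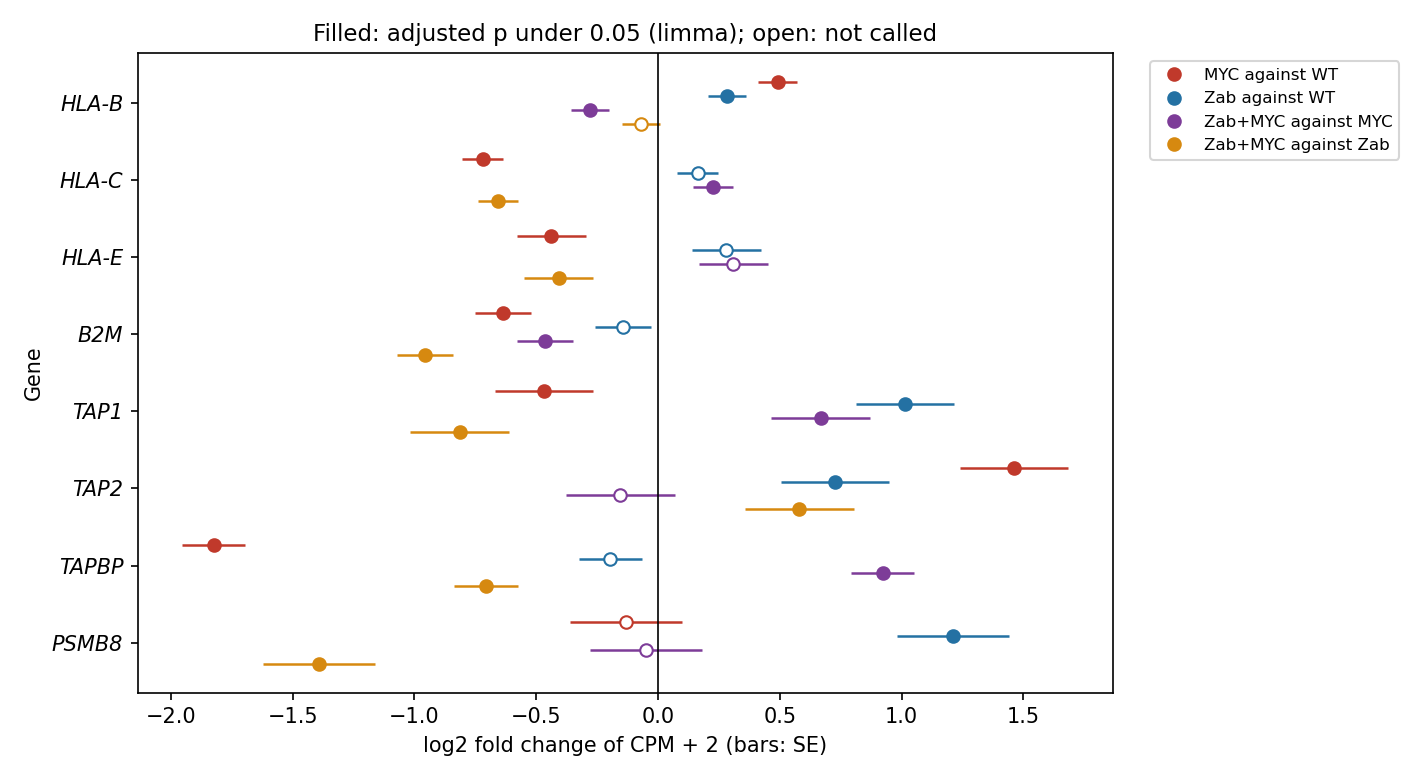
Points give the log2 fold change of CPM + 2 with its SE for the 8 tested genes in 4 comparisons, filled where the adjusted p is under 0.05. TAPBP spans the widest range, from -1.82 in MYC against WT to 0.92 in Zab+MYC against MYC, and PSMB8 is filled only where Zab without MYC is one side of the comparison.

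The scale on which the authors deposited the values places the groups differently. The deposited values are tags times 1 factor per library. Their sums over genes were 0.705 of WT in Zab and 0.804 of WT in Zab+MYC. On that scale the median of all tested genes moved to -0.51 (Zab against WT), -0.37 (Zab+MYC against WT) and -0.31 (Zab+MYC against MYC). The members shifted with it: TAP1 and PSMB8 still rose in Zab against WT (log2 0.49 and 0.69, adjusted p = 0.0395 and 0.00992), TAP2 was not called (0.22), and HLA-B, HLA-C, B2M and TAPBP fell (-0.26, -0.38, -0.68 and -0.74). All Zab results in the text are thus relative to the bulk of genes. In MYC against WT, where the median moved to -0.09, the same 2 members rose and the same 5 fell on both scales.

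Genes that work beside the members in peptide processing were counted from lists set down with them. The constitutive catalytic subunits that the immunoproteasome replaces are PSMB5, PSMB6 and PSMB7. All 3 rose in MYC against WT, by 1.38-fold, 1.25-fold and 2.23-fold. PSMB7 alone rose in Zab against WT (1.54-fold, limma adjusted p = 5.42e-05). On the deposited scale 0 of the 3 rose and 2 fell in Zab against WT, and the list's median of 0.04 turned to -0.50. Of 11 other subunits of the 20S core, 7 rose and 0 fell in MYC against WT by limma, beside 27.8% and 30.4% of all genes. Those 7 were led by PSMA5, PSMB3 and PSMA3. By limma at an unadjusted p under 0.05, by edgeR and by DESeq2, 0 of the 11 were lower, and 1 was on the deposited scale. PSMB10, the third immunoproteasome subunit, measured 23.2 CPM (WT), 37.2 (MYC), 33.4 (Zab) and 34.0 (Zab+MYC). It was called in MYC against WT alone among the pairwise comparisons (log2 0.62, limma adjusted p = 0.0387), a borderline call. Of its list of 4 genes, 2 were called higher in MYC against WT, but 1 by library totals and on the deposited scale. Per kilobase, PSMB10 stood at 0.245 ± 0.0746 of PSMB7 (WT), 0.171 ± 0.0469 (MYC), 0.222 ± 0.0284 (Zab) and 0.167 ± 0.0135 (Zab+MYC). PSME1 and PSME2, which form the interferon-inducible 11S activator that caps the proteasome, had the order of group means that TAPBP had. PSME1 stood at 427 CPM (WT), 179 (MYC), 416 (Zab) and 256 (Zab+MYC), a 2.37-fold fall with MYC (adjusted p = 3.52e-20). PSME2 stood at 155, 48.6, 120 and 77.9 CPM, a 3.18-fold fall with MYC (adjusted p = 4.23e-14), and rose 1.61-fold in Zab+MYC against MYC (adjusted p = 0.00129).

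Among chaperones of the loading complex and peptide-trimming enzymes, the calls were about as frequent as over all genes. Of 12 tested genes of 14 listed, 4 rose and 3 fell in MYC against WT, beside 27.8% and 30.4% of all genes, and 2 rose and 1 fell in Zab against WT, beside 13.1% and 11.3% (1 and 6 on the deposited scale). THOP1 and BLMH, cytosolic peptidases that degrade peptides, rose 2.54-fold and 2.24-fold in MYC. LAP3, an aminopeptidase, rose 2.21-fold in MYC (adjusted p = 2.17e-06) and 2.15-fold in Zab (adjusted p = 2e-05). CALR, the calreticulin chaperone that holds the heavy chain in the loading complex, was 2.12-fold lower in MYC (adjusted p = 1.71e-14) and 1.29-fold lower in Zab (adjusted p = 0.00558) than in WT. Of the class I-like and natural killer ligand genes, 4 of 12 were tested, and 1 rose (ULBP3, 2.13-fold) and 3 fell in MYC against WT, among them FCGRT, the neonatal Fc receptor that pairs with B2M (3.63-fold). In Zab against WT limma called 1 of these, FCGRT, 2.31-fold lower, and 0 higher (2 higher at an unadjusted p under 0.05, 1 by edgeR, which was ULBP2, and 0 by DESeq2). Class II genes had few tags: 11 of 13 were not tested, with at most 21.5 tags over all libraries, and the antigen-loading chaperone CD74 rose 2.75-fold in MYC against WT from 10.9 CPM (adjusted p = 9.79e-05).

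Of 18 transcription factors and regulators of class I genes, 13 were tested. In MYC against WT 3 rose and 2 fell, beside 27.8% and 30.4% of all genes. In Zab against WT 2 rose and 0 fell by limma, beside 13.1% and 11.3%. Of the 13, 2 were lower in Zab by limma at an unadjusted p under 0.05, 0 by edgeR and by DESeq2, and 6 on the deposited scale. NFKB1, a subunit of NF-kB, rose 3.09-fold in MYC and 1.61-fold in Zab. On the deposited scale 0 of the 13 were called higher in Zab against WT, so the NFKB1 call with Zab ended there. RFX5, which binds class I promoters in the RFX complex, fell 1.79-fold in MYC (adjusted p = 0.0167). IRF1, an activator of class I genes, measured 26.8, 26.1, 30.8 and 25.7 CPM in WT, MYC, Zab and Zab+MYC and was not called, with limma adjusted p of 0.521 to 0.998 over the 7 tests. NLRC5, the class I transactivator, had 32.5 tags over all libraries and was not tested.

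Most genes of interferon receptors and signalling were lower in MYC than in WT. Over the 11 tested, 0 rose and 9 fell in MYC against WT by limma with a median of -1.01, beside 27.8% and 30.4% of all genes (0 higher at an unadjusted p under 0.05, by edgeR and by DESeq2). In Zab+MYC against Zab, 0 rose and 2 fell, beside 14.3% and 12.5% of all genes, with a median of -0.35. There, 0 were higher by limma at an unadjusted p under 0.05, by edgeR and by DESeq2. STAT2, a factor of type I interferon signalling, measured 30.9 and 39.2 CPM (WT), 3.74 and 8.72 (MYC), 33.7 and 32.4 (Zab) and 11.7 and 14.2 (Zab+MYC). All 4 libraries with MYC overexpression were below the others. STAT2 fell 4.70-fold in MYC against WT (adjusted p = 2.42e-08) and did not pass in Zab against WT (log2 -0.07). IRF9, the DNA-binding part of the complex that STAT2 joins, fell 2.02-fold in MYC (adjusted p = 0.0376) and was not called in Zab (log2 0.81, adjusted p = 0.17). SOCS3, an inhibitor of cytokine signalling, fell 5.12-fold in MYC (adjusted p = 2.35e-06), and IFNAR2, a chain of the type I interferon receptor, fell 2.78-fold (adjusted p = 0.000586). In Zab against WT, 0 of the 11 rose by limma (1 higher at an unadjusted p under 0.05, 0 by edgeR and by DESeq2), beside 13.1% of all genes. The 1 that fell, beside 11.3%, was IFNGR2, a chain of the type II interferon receptor (1.53-fold, adjusted p = 0.0276). On the deposited scale 5 fell. Of 9 interferon genes, IFNE had 1 tag, in WT, and the other 8 had 0 in all libraries. For each of these 8, 0 tags over a group's libraries allow a level, before TMM scaling, of up to 1.80 CPM (WT), 1.23 (MYC), 2.01 (Zab) and 1.72 (Zab+MYC), from 3 tags over the group and for counting error only.

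Interferon-stimulated effector genes, the antiviral genes that interferons switch on, had a larger median change in Zab than the class I members, a difference that was described and not tested. Of 28 tested genes of 44 listed, 25 rose and 0 fell in Zab against WT by limma, beside 13.1% and 11.3% of all genes. On the deposited scale 22 of the 28 rose and 1 fell. By limma at an unadjusted p under 0.05, by edgeR and by DESeq2, 0 of the 28 were lower. The median log2 of the 28 was 1.86 against 0.28 for the members. Their summed level was 1191.9 to 1263.0 CPM (WT), 897.16 to 908.49 (MYC), 4131.4 to 4197.5 (Zab) and 1015.5 to 1063.2 (Zab+MYC). In MYC against WT, 3 rose and 14 fell, beside 27.8% and 30.4% of all genes, with a median of -0.57 against -0.45 for the members. In Zab+MYC against MYC, 6 rose and 1 fell, beside 11.8% and 8.14%, with a median of 0.09 (-0.04 on the deposited scale). In Zab+MYC against Zab, 0 rose and 27 fell, beside 14.3% and 12.5%, with a median of -2.54 against -0.68 for the members. There, 0 were higher by limma at an unadjusted p under 0.05, by edgeR and by DESeq2. The low-count filter can keep a gene through Zab alone, such as OAS3, with 71.8 CPM in Zab and 3.22 to 5.49 in the other groups. For such genes the rise in Zab and the fall from it were built in, and their number was not counted.

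**Figure D4:**
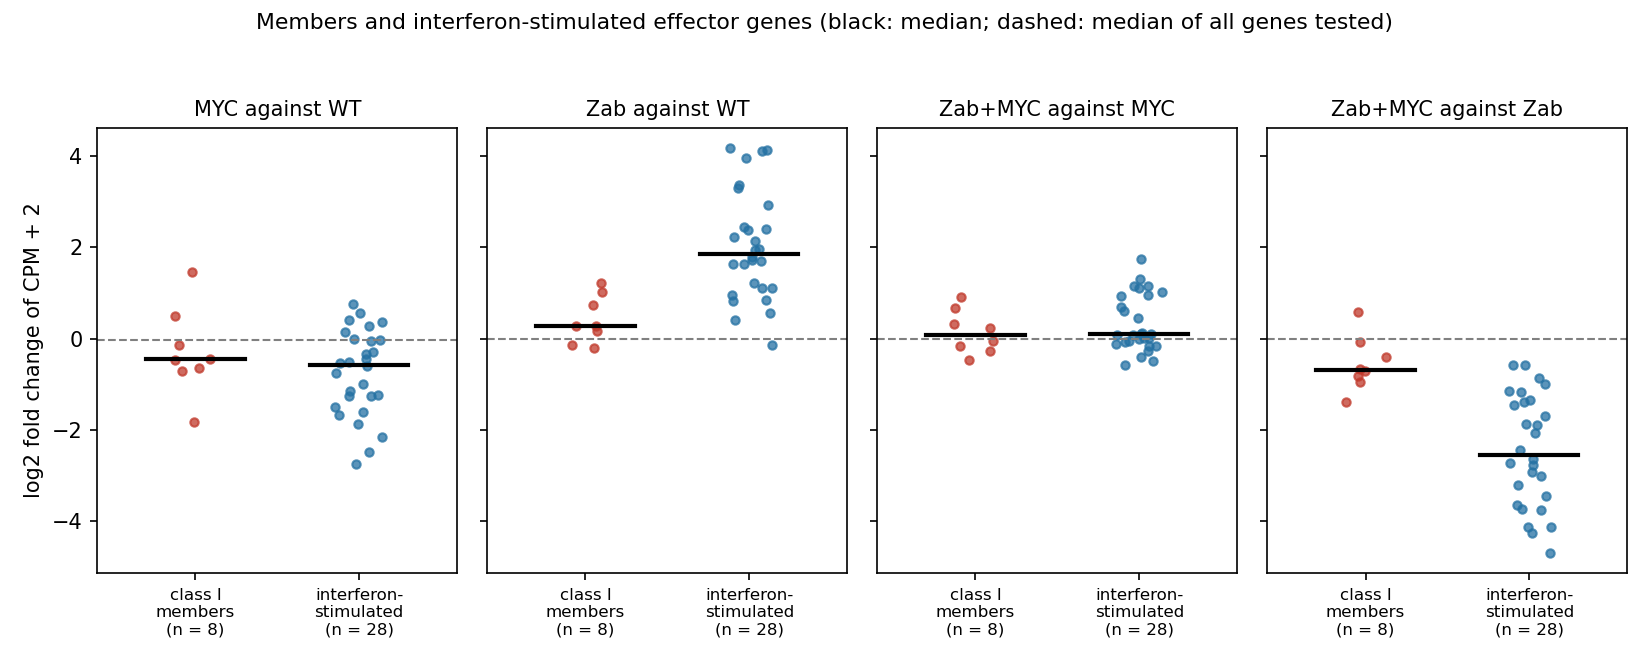
Each point is the log2 fold change of CPM + 2 of 1 gene, with the 8 tested class I members in red and the 28 tested interferon-stimulated effector genes in blue, in 4 comparisons. The black bar is the list's median (0.28 and 1.86 in Zab against WT, -0.68 and -2.54 in Zab+MYC against Zab), and the dashed line is the median of all 9673 tested genes. Effector genes such as OAS3 passed the low-count filter through Zab alone.

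Genes that neighbour the members on chromosome 6 gave a local comparison. Between the outermost members (hg19 chr6:30457286-33281855) the tables list 119 other genes, of which 57 were tested. In MYC against WT, 12 rose and 29 fell, beside 27.8% and 30.4% of all genes, with a median log2 of -0.52, beside -0.45 for the members. In Zab against WT, 7 rose and 8 fell, with a median of -0.04, near the 13.1% and 11.3% of all genes; on the deposited scale 2 rose and 33 fell, with a median of -0.56. In Zab+MYC against MYC, 12 rose and 5 fell, with a median of 0.30, beside 11.8% and 8.14%; on the deposited scale 8 rose and 11 fell, with a median of -0.001. The neighbours with the largest calls were DDAH2, TCF19 and DDR1 in MYC, all lower, and IER3, PRRT1 and RNF5 in Zab, also lower.

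The members did not follow 1 pattern. Over the 8 libraries, Pearson's r of log2(CPM + 2) was 0.911 between HLA-C and TAPBP, 0.849 between TAP1 and PSMB8 and 0.827 between HLA-B and TAP2, but -0.834 between TAP2 and TAPBP and -0.808 between HLA-B and TAPBP. These values describe 8 libraries in 4 groups and carry no test. Of 9129 other genes with a mean of at least 10 CPM, the 5 whose levels were most like the mean standardized level of the 8 tested members were TNFRSF12A (r = 0.987), OAS3 (0.968), ISG15 (0.966), TMEM63B (0.966) and FAM104A (0.963). TNFRSF12A, the receptor of the cytokine TWEAK, measured 24.605 and 23.839 CPM (WT), 19.615 and 19.431 (MYC), 42.319 and 42.226 (Zab) and 23.844 and 19.846 (Zab+MYC). OAS3 and ISG15, both interferon-stimulated, are on the list described above. OAS3 reached the mean of 10 CPM through Zab alone, with 71.8 CPM there and 3.22 to 5.49 in the other groups. The mean level combined members that moved in opposite directions, so a high r with it does not describe each member.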

How the data were processed

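The deposited values are signal per gene, made by the authors as exon tags of 1 RefSeq transcript per gene on hg19 multiplied by 1 factor per library; HOMER counted them over exons with 1 transcript kept per gene, per the file headers. Trim Galore 0.6.6, STAR and HOMER 4.11.1 with the builds hg19 and dm6 are named in the submitters' processing notes, and a folder name in the headers holds the word spikein; how the factor was set and whether counting used strand are not given in the sources used here. The deposited transcript length is in bases, per the file headers. All values were whole multiples of 1 step per library (100% within a tolerance of 0.1 step, 2 steps per tag), so tags were recovered.

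Recovered tags were scaled by TMM (edgeR 4.0.16), and log2(CPM + 2) was fitted with limma 3.58.1 and a mean-variance trend over all 8 libraries, 1 mean per group, for genes kept by filterByExpr, with Benjamini-Hochberg adjustment over 9673 genes per comparison. Samples were grouped by the genotype label. The procedure was tested on simulated data first. Alternatives were RLE scaling, library totals, the deposited scale, pseudocounts of 1 and 5 CPM, no low-count filter or one of 5 CPM in any 2 libraries, edgeR and DESeq2 1.42.0 on recovered tags, the compared groups alone, a replicate block, each library left out, and, chosen after seeing the data, scaling by transcript length, because 50.6% of genes had more than 1 transcript kept across libraries. Levels were compared between genes only per kilobase. Members and gene lists were chosen with earlier results of these data known; named genes are all members, the 3 largest calls per list in Zab against WT and in MYC against WT, fixed counterparts and regulators (PSMB5, PSMB6, PSMB7, PSMB10, NLRC5, IRF1, RFX5, STAT2 and IRF9), and the 5 genes with the highest correlation to the members' mean; TNFRSF12A's values were singled out after they were seen. Some genes are not reported here and were left out of the lists. Lists that gave no further result were those of endothelial and haematopoietic markers. A list of 2 class I heavy chain genes outside the members had no call against WT. Of these, HLA-F was higher in Zab than in MYC (2.29-fold, limma adjusted p = 0.00188), and HLA-G had 0 tags.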

Additional observations from a re-analysis of the deposited data

Results flagged for a closer look

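For 4 genes the effect of Zab with MYC overexpression differed from its effect without it, by a limma test of that difference. DESeq2 did not call that difference for TAP2 and PSMB8. HLA-B changed by log2 0.28 with Zab in cells without MYC overexpression and by -0.28 in cells with it, a difference of -0.56. TAP2 changed by 0.73 and by -0.15, a difference of -0.88. PSMB8 changed by 1.21 and by -0.05, a difference of -1.26. TAPBP changed by -0.20 and by 0.92, a difference of 1.12. The level of ADAR tags, 6100.5 CPM in Zab and 1043.1 CPM in Zab+MYC, differs between the groups compared, and its part in these differences was not tested.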

How the results depend on the processing

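Of 56 results (8 genes in 7 tests), 40 were called, and 23 of these stayed called in the same direction in all 20 alternatives (the interaction could not be fitted on the compared groups alone), among them HLA-B, HLA-C, B2M, TAP2 and TAPBP for MYC over WT and TAP1 and PSMB8 for Zab over WT. On the deposited scale the direction turned in Zab against WT for HLA-B (-0.259), HLA-C (-0.38) and HLA-E (-0.257), in Zab+MYC against WT for HLA-B (-0.174) and TAP1 (-0.172), in Zab+MYC against MYC for HLA-C (-0.102) and HLA-E (-0.015), and in Zab+MYC against Zab for HLA-B (0.085). Other turns were of values not called: PSMB8 in Zab+MYC against MYC by library totals (0.002), and the interaction of HLA-E under RLE scaling (-0.006), no filter (-0.012), the stricter filter (-0.026) and DESeq2 (-0.027). Leaving out 1 library gave ranges that include 0 for PSMB8 in MYC against WT (-0.392 to 0.209) and in Zab+MYC against MYC (-0.385 to 0.216), HLA-E in Zab+MYC against WT (-0.256 to 0.014), and the interactions of HLA-C (-0.052 to 0.124) and HLA-E (-0.178 to 0.166).

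Genes called numbered 5633 (MYC over WT), 2363 (Zab over WT), 4088 (Zab+MYC over WT), 1933 (Zab+MYC over MYC), 2592 (Zab+MYC over Zab), 4926 (Zab over MYC) and 2695 (interaction). DESeq2 called 889 (Zab over WT), 2284 (Zab+MYC over WT), 702 (Zab+MYC over MYC), 926 (Zab+MYC over Zab), 3107 (Zab over MYC) and 1118 (interaction); it called 2 members for each of Zab over WT, Zab+MYC over MYC and the interaction. On the deposited scale 5018 genes were called in Zab against WT (251 higher) and 3522 in Zab+MYC against MYC (575 higher), with 3 members in the latter. Leaving out 1 library gave 1136 to 2213 genes and 1 to 5 members in Zab+MYC against MYC and 1712 to 2648 genes in Zab+MYC against Zab; the lowest of each came without the second Zab+MYC library. The cause was not tested. Same-numbered libraries showed no shared deviation (r of -0.023 to 0.014). At this low depth counting error adds to each difference, so the check cannot exclude that the numbers pair them. With a replicate block 5650 genes were called for MYC over WT and 2434 for Zab over WT, and the counts of members called did not change. At 686992 to 1326166 exon tags per library, PSMB9 and NLRC5 could not be tested with the filter.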
